A study of Mus musculus with 3 samples.

Results

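Elastic fibre genes were followed through a culture in which testis interstitial cells were driven towards Leydig cells, the cells of the testis that make testosterone. The 10 genes were listed by name, with earlier results of these data known. They are Eln, Fbn1, Fbn2, Mfap2, Mfap4, Mfap5, Fbln1, Fbln5, Ltbp4 and Lox, and all 10 were found among the 24698 genes of the merged single-cell count table. The cells came from testes of adult C57BL/6 males of 8 to 12 weeks and were sorted as SCA1+/cKIT-. They were plated on Matrigel at 100000 cells per well, left for 18 h with 10% fetal bovine serum, and expanded for 3 days with PdgfAA, PdgfBB, Fgf2 and SAG, an agonist of Smoothened that turns on Hedgehog signalling. LiCl2 and DAPT, an inhibitor of the gamma-secretase that Notch needs, were then added for differentiation. Doses were 10 ng/ml of PdgfAA, PdgfBB and Fgf2, 0.5 uM SAG, 5 mM LiCl2 and 10 uM DAPT. Cultures were taken at days 4, 7 and 14, and all 3 groups share this strain, sort and expansion. Day 4 falls at the end of expansion, while days 7 and 14 come after the change of medium, so time in culture and the added LiCl2 and DAPT cannot be told apart when day 4 is compared with the others. Each day is 1 Drop-seq library, the number of animals is not given in the sources used here, and no untreated culture was analysed here. A difference between days therefore has no replicate check, no p-value is given, and day and library cannot be told apart.

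Elastic fibres give skin, lung and vessel walls their recoil. Tropoelastin, the product of Eln, is laid onto a scaffold of fibrillin microfibrils and then cross-linked by copper-dependent lysyl oxidases, of which Lox is the best known. Fibrillins and the microfibril-associated glycoproteins make up the scaffold, while fibulins and latent TGF-beta binding proteins guide assembly. In the adult testis, elastic fibres lie around blood vessels and in the wall of the seminiferous tubule.

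In GRCm38 with the GENCODE M21 annotation, the genes lie apart from each other. Eln lies on chromosome 5 from 134702593 to 134747323 on the minus strand, Fbn1 on chromosome 2 from 125300594 to 125507993 on the minus strand, and Mfap2 on chromosome 4 from 141010418 to 141015984 on the plus strand. Mfap4 lies on chromosome 11 from 61485431 to 61488900 on the plus strand, and Mfap5 on chromosome 6 from 122505845 to 122529290 on the plus strand. Fbln1 lies on chromosome 15 from 85205949 to 85286535 on the plus strand, Fbln5 on chromosome 12 from 101746565 to 101819055 on the minus strand, and Ltbp4 on chromosome 7 from 27305136 to 27337692 on the minus strand.

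Mfap2, Fbln1, Fbln5 and Ltbp4 had higher measured levels together in the same day 7 cells, as described below with their values. The bases just upstream of them are shown for that reason. The stretches come from the RefSeq promoter windows on GRCm38.p6, 250 bases before to 50 after each start, and were cut to bases that no GENCODE exon covers. Capitals mark matches, on either strand, to the motifs searched.
Mfap2, chr4:141010174-141010417, plus strand: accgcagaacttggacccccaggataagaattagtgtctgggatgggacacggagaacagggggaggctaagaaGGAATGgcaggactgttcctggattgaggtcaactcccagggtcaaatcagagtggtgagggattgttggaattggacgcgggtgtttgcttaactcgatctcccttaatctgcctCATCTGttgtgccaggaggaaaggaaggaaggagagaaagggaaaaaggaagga
Fbln1, chr15:85205699-85205948, plus strand: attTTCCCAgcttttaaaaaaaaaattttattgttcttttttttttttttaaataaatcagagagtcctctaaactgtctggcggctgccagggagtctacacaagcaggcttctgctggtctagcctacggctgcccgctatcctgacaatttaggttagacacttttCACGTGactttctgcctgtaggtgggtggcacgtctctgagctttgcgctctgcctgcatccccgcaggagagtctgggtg
Fbln5, chr12:101819120-101819369, minus strand: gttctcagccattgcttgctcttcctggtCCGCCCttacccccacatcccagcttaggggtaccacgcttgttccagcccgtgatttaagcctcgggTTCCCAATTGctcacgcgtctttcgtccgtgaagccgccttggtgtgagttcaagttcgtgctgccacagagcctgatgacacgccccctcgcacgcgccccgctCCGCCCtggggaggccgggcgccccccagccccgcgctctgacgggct
Ltbp4, chr7:27337693-27337862, minus strand: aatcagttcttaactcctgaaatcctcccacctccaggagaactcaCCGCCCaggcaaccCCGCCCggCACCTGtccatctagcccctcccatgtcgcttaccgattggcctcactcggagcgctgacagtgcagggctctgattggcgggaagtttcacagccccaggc

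Searched were the E-box (CANNTG), the steroidogenic factor 1 half-site (AAGGTCA), a Gli site (TGGGTGGTC), an RBPJ site (TGGGAA), the GC box (GGGCGG) and a TEAD site (GGAATG). An E-box was found once in each stretch, and 65.6% of all 32851 mouse windows hold one over the length of the Mfap2 stretch. The Mfap2 stretch also held 1 TEAD match, present in 12.4% of windows, and the Fbln1 stretch 1 RBPJ match, present in 21.6%. In the Fbln5 stretch the RBPJ match overlapped the E-box, and 2 GC boxes were found where 32.7% of windows hold at least 1. The Ltbp4 stretch held 2 GC boxes, against 19.5% of windows over its length. Neither AAGGTCA nor TGGGTGGTC occurred in any of the 4, and 4.08% and 0.225% of windows of 250 bases hold them. A match is a stretch of letters only, and 3′ counts do not tell which start site was used.

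The libraries held 2980, 2171 and 973 cells that passed the study's filter, with 12677110, 11627440 and 5324400 unique molecular identifiers (UMIs, counted molecules) on days 4, 7 and 14. The median cell had 2886.5, 3285 and 3272 UMIs, and no cell barcode was shared between the libraries. Levels are given as CPM, the UMIs of a gene per 1000000 UMIs of the same cells, with exact Poisson 95% intervals that cover counting error only. A gene was called higher or lower past a 2-fold ratio if both groups together held at least 20 UMIs. Markers of Leydig cells summed to 424, 633 and 10711 CPM over the days. Among markers of other testis cells, endothelial markers summed to at most 18.9 CPM on any day and Sertoli markers to 51.2–54.4 CPM. Macrophage markers stood at 10.6, 27.3 and 218 CPM, germ cell markers were highest on day 4 with 116 CPM, and pericyte and smooth muscle markers stood at 152, 148 and 18.6 CPM. The part these cells play in any level below was not tested.

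Over the culture days the elastic fibre genes did not move as 1 block. Lox, Fbn1 and Mfap5 were high on days 4 and 7 and far lower on day 14. The measured level of Eln was 2.57-fold higher on day 14 than on day 4. Mfap2 and Fbln5 stayed within 2-fold between all days. Lox, the cross-linking enzyme of elastin and collagen, is encoded on chromosome 18, as is Fbn2. It held 13883, 21735 and 327 UMIs on the 3 days. This was 1095 CPM (interval 1077–1113), 1869 CPM (1845–1894) and 61.4 CPM (54.9–68.4). Its measured level on day 14 was 30.4-fold below that of day 7 and 17.8-fold below that of day 4. The level on day 14 lies under what the mixed cells described below allow, so these are ratios of measured levels and not of expression.

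Fbn1, the fibrillin that forms most microfibrils in adult tissue, held 7684, 9444 and 1122 UMIs. Its level was 606, 812 and 211 CPM, a 3.85-fold drop over the last step. Mfap5, the microfibril-associated glycoprotein also called MAGP-2, held 4059, 2963 and 144 UMIs. It stood at 320.2, 255 and 27.0 CPM, and the measured level of day 14 was 9.42-fold below that of day 7, with the same limit. Day 14 was the low library for Lox, Fbn1 and Mfap5, and the intervals of the 3 days did not overlap for any of them.

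Eln, the gene of tropoelastin, held 553, 759 and 597 UMIs. Its level went from 43.6 CPM (interval 40.1–47.4) through 65.3 CPM (60.7–70.1) to 112 CPM (103–121). Day 14 was 2.57-fold above day 4 (interval 2.29–2.89) and 1.72-fold above day 7, so only the longer span passed 2-fold. The levels of days 4 and 7 lie inside the Eln intervals of the mixed cells described below, 5.71–81.0 and 0.788–173 CPM. The day 14 interval spans the 110.5 CPM limit of that day, so these are ratios of measured levels. Mfap2, the microfibril-associated glycoprotein MAGP-1, held 729, 808 and 484 UMIs, or 57.5, 69.5 and 90.9 CPM. The order of its days was that of Eln, with a day 14 to day 4 ratio of 1.58 that did not pass 2-fold. The Mfap2 levels also lie inside the interval or under the limit of the mixed cells of each day.

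Mfap4, a microfibril-associated fibrinogen-like protein that binds tropoelastin, had its highest measured level on day 7. It held 360, 952 and 207 UMIs, or 28.4, 81.9 and 38.9 CPM, and day 7 was 2.88-fold above day 4 (interval 2.55–3.26). These levels lie inside the interval or under the limit of the mixed cells of each day, so this is a ratio of measured levels. Fbln5, which brings tropoelastin onto microfibrils, held 3481, 3051 and 1726 UMIs. Its level was 275, 262 and 324 CPM, and no pair of days differed by as much as 1.5-fold.

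The remaining 3 genes had few UMIs. Ltbp4, which binds latent TGF-beta and helps elastin deposition, held 334, 143 and 46 UMIs, or 26.3, 12.3 and 8.64 CPM. It fell past 2-fold between days 4 and 7, to a ratio of 0.467 (interval 0.381–0.569). Fbln1, a fibulin of basement membranes and elastic fibres, held 101, 97 and 37 UMIs at 7.97, 8.34 and 6.95 CPM, and its 3 intervals overlapped. Fbn2, the fibrillin most used in the embryo, held 62, 18 and 1 UMIs. Its level fell from 4.89 CPM (interval 3.75–6.27) to 1.55 CPM (0.917–2.45) and 0.188 CPM (0.005–1.05). The levels of all 3 genes lie under what the mixed cells of each day allow.

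**Figure D1:**
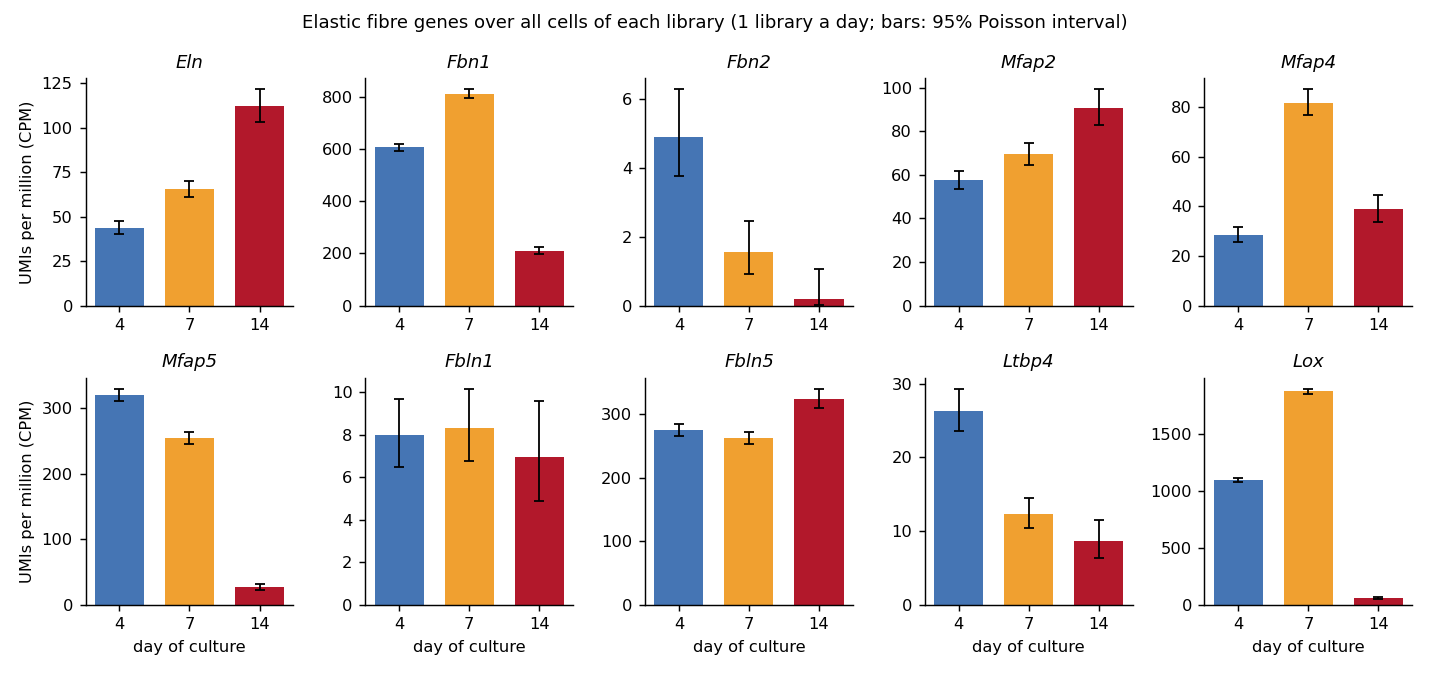
Level of each elastic fibre gene in CPM at culture days 4, 7 and 14, with 1 library a day and exact Poisson 95% intervals as bars. The measured level of Lox fell from 1869 CPM on day 7 to 61.4 CPM on day 14, while that of Eln rose from 43.6 to 112 CPM over the culture.

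Counted over the 10 genes, 1 was past 2-fold higher and 2 lower on day 7 against day 4, where 5.39% of 12954 tested genes were higher and 4.33% lower. Against day 7, day 14 had 0 higher and 4 lower of 9 tested, against 12.4% and 16.6% of all genes. Against day 4, day 14 had 1 higher and 5 lower of 10, against 16.3% and 17.6%. The median log2 ratio of the 10 genes was -0.84 in this last comparison and -0.05 over all genes tested. The comparisons share their libraries, so they are not independent.

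For Lox and Eln, shares of cells with a UMI gave the same order of days as the levels. Each cell was thinned to 1500 UMIs, which left out 753, 429 and 179 shallower cells by day. A Lox UMI was then seen in 65.8% of day 4 cells, 76.6% of day 7 cells and 8.19% of day 14 cells. The corresponding shares for Eln were 6.74%, 8.67% and 14.6%, against 13.5%, 15.8% and 30.8% of all cells before thinning. Lox was carried by most cells of the early days, while Eln was seen in a minority on every day. A small cluster of 54 mixed cells was led by Lyz2, Tnp1 and Prm1, genes of macrophages and spermatids. Endothelial markers also stood high in it, with a median log2 ratio to the other cells of 2.36, against 2.24 for macrophage markers. Whether some of its cells express these genes was not tested, so its levels may hold expression as well as free RNA.

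The mixed cells came mainly from the early days, with 35, 16 and 3 of them on days 4, 7 and 14, and how much of their RNA is free RNA was not tested. Pooled, an Eln UMI was seen in 7.41% of them at a median of 2106 UMIs, and in 1 of the 40 that remained after thinning. Lox was seen in 22.2%, or 17.5% after thinning. By day, Eln held 3 UMIs on day 4, or 27.7 CPM (interval 5.71–81.0), 1 UMI on day 7, or 31.1 CPM (0.788–173), and 0 on day 14. Lox held 24 UMIs on day 4, or 222 CPM (142–330), 4 on day 7, or 124 CPM (33.9–319), and 0 on day 14. A count of 0 in the 3 cells of day 14 allows a level of up to 110.5 CPM. The Lox, Mfap2, Mfap4 and Mfap5 levels of that day cannot be told from it, and the Eln interval spans it. Levels inside the interval or limit of their own day are not read as expression, and a ratio against one is a ratio of measured levels.

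The most Lox UMIs in 1 cell were 257, on day 7, which is 1.18% of that day's Lox. The most Eln UMIs in 1 cell were 26, also on day 7, or 3.43% of the day's total.

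Cell states were rebuilt by clustering without the elastic fibre genes and without the other lists of matrix genes used here, so the levels below did not shape the clusters. The 12 clusters were named from marker lists as proliferating progenitor-like, differentiating myofibroblast-like, extracellular matrix (ECM) myofibroblast-like, interstitial progenitor-like, differentiating Leydig-like and Leydig-like cells. Clusters named differentiating myofibroblast-like were led in part by interferon response genes such as Isg15, Ifit3 and Irf7. The cluster of 577 cells led by Ifitm1, Igfbp3 and Lrrc17, nearly all of day 4, and the mixed cluster stayed unnamed. The interstitial progenitor-like cluster passed with 5 of its 10 markers and was led by Cilp, Igfbp5 and Entpd2, with differentiating Leydig markers close behind. Its own 10 markers summed to 930 CPM in it but to 1324 CPM in the differentiating Leydig-like cells. The name is therefore a label and does not identify these cells as progenitors. Names rebuilt in this way may differ from those of the study.

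Of day 4 cells, 1655 were differentiating myofibroblast-like, 584 proliferating progenitor-like and 52 differentiating Leydig-like. Of day 7 cells, 1291 were ECM myofibroblast-like, 474 proliferating progenitor-like, 243 interstitial progenitor-like, 59 differentiating myofibroblast-like and 54 differentiating Leydig-like. Of day 14 cells, 523 were differentiating Leydig-like and 425 Leydig-like. These 10 groups of at least 50 cells are compared here.

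Lox and Fbn1 were highest in myofibroblast-like cells, and Eln, Mfap2, Mfap4, Fbln5 and Ltbp4 in interstitial progenitor-like or differentiating Leydig-like cells. Mfap5 was not divided in this way, as given below. Lox was highest in the ECM myofibroblast-like cells of day 7, at 2236 CPM (interval 2202–2270). It stood at 1586 and 1444 CPM in the differentiating myofibroblast-like cells of days 7 and 4, whose intervals (1429–1755 and 1415–1473) overlap, and at 1554 and 892 CPM in proliferating cells of days 7 and 4. The interstitial progenitor-like cells followed with 657 CPM, and the differentiating Leydig-like cells had 309, 256 and 98.3 CPM on days 7, 4 and 14. The Leydig-like cells of day 14 were lowest, at 33.4 CPM, and both groups of that day lie under the 110.5 CPM limit of its mixed cells.

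Fbn1 had a shallower slope. It was highest in ECM myofibroblast-like cells at 894 CPM, stood between 524 and 741 CPM in the other myofibroblast-like, proliferating and interstitial progenitor-like groups, and was lowest in Leydig-like cells at 143 CPM. Mfap5 stood at 396 CPM (interval 315–492) in the differentiating Leydig-like cells of day 4 and at 378 CPM (364–394) in the myofibroblast-like cells of that day, so the leading pair did not differ beyond counting error. It reached 287 CPM in ECM myofibroblast-like cells and 13.3 CPM in Leydig-like cells of day 14.

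Eln ran the other way. It was highest in the differentiating Leydig-like cells of day 7, where 74 UMIs gave 424 CPM (interval 333–532). Next were the interstitial progenitor-like cells of that day, where 319 UMIs gave 319.7 CPM (286–357), and the 2 intervals overlap. The differentiating Leydig-like cells of days 4 and 14 stood at 237 and 202 CPM, and Leydig-like cells at 62.2 CPM (54.0–71.3). Proliferating cells had 53.4 CPM on day 7 and 29.4 CPM on day 4, and ECM myofibroblast-like cells 27.5 CPM (23.8–31.6). Differentiating myofibroblast-like cells had 33.1 CPM on day 4 and 8.48 CPM, from 2 UMIs, on day 7. The levels of these proliferating and myofibroblast-like groups all lie inside the interval of the mixed cells of their day. The Leydig-like level lies under the limit of day 14. The intervals of the differentiating Leydig-like and interstitial progenitor-like cells of days 4 and 7 lie above those of the mixed cells.

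Mfap2 followed the groups in much the order of Eln, from 401 CPM in differentiating Leydig-like cells of day 7 and 310.7 CPM in interstitial progenitor-like cells to 32.5 CPM in ECM myofibroblast-like cells. Fbln5 was highest at 894 CPM in the same differentiating Leydig-like cells and lowest at 187 CPM in proliferating cells of day 4. That lowest level lies inside the Fbln5 interval of the day's mixed cells, 91.5–251 CPM. Mfap4 led at 239 CPM in the interstitial progenitor-like cells and Ltbp4 at 68.7 CPM, from 12 UMIs, in the differentiating Leydig-like cells of day 7. Fbln1 held 3 to 35 UMIs in every group and Fbn2 at most 28, so their order among groups is not read.

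**Figure D2:**
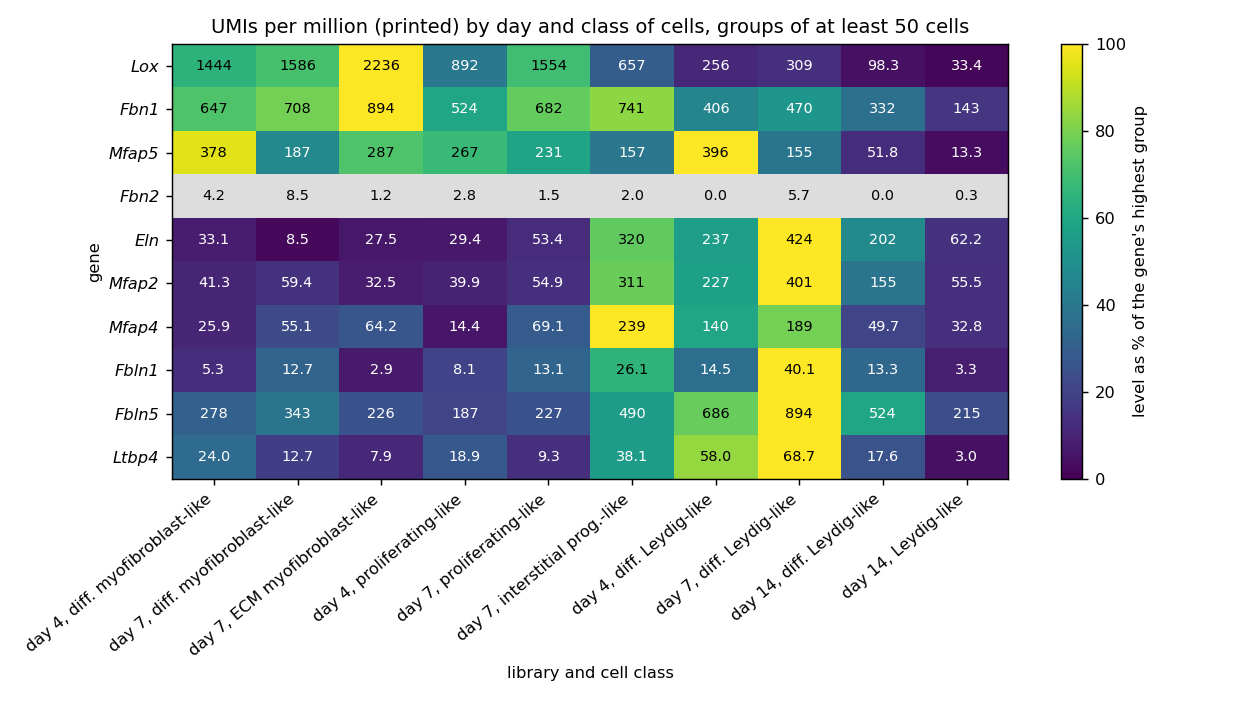
Level of each gene (rows) in CPM in the 10 groups of at least 50 cells (columns, day and cell state), printed in each cell and shown by colour. The Fbn2 row is greyed because its groups hold 0 to 28 UMIs, and Lox spans 33.4 to 2236 CPM from Leydig-like to ECM myofibroblast-like cells.

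Day 7 offered the sharpest contrast between states within 1 library. Interstitial progenitor-like cells had 11.6-fold the measured Eln level of ECM myofibroblast-like cells (interval 9.72–13.9) and 9.55-fold the Mfap2 level (8.05–11.4). The Eln level of ECM myofibroblast-like cells is within the mixed-cell interval. Their Mfap2, Mfap4, Ltbp4 and Fbln1 levels of 32.5, 64.2, 7.89 and 2.86 CPM are under the 93.3 CPM that the day's mixed cells allow. The values of these genes are thus ratios of measured levels. Mfap4 was 3.71-fold, Fbln5 2.16-fold, Ltbp4 4.83-fold and Fbln1 9.12-fold higher, the last from 26 against 21 UMIs (interval 4.93–17.0). The Fbln5 interval of ECM myofibroblast-like cells, 216–238 CPM, overlaps that of the day's mixed cells, 7.54–225 CPM. The Fbln5 ratio carries the same limit. Lox was 3.40-fold lower. Fbn1 and Mfap5, with ratios of 0.829 and 0.548, stayed within 2-fold.

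By measured level this gave 6 higher and 1 lower of the 9 elastic fibre genes tested, where 6.43% of 11027 genes were higher and 7.60% lower. The median log2 ratio was 1.88 over the 9 genes and -0.02 over all genes tested. The median depths were 2778 UMIs per cell for interstitial progenitor-like and 3408 for ECM myofibroblast-like cells. After thinning, an Eln UMI was seen in 35.8% and 4.20% of these cells.

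The differentiating Leydig-like cells of day 7 differed from ECM myofibroblast-like cells in the same genes and directions. Eln was 15.4-fold higher (interval 11.7–20.2), Mfap2 12.3-fold, Ltbp4 8.71-fold, Fbln5 3.95-fold, Mfap4 2.94-fold and Fbln1 14.0-fold from 7 against 21 UMIs (5.04–34.3). Lox was 7.23-fold lower. Again 6 of 9 genes were higher and 1 lower, where 13.3% of all genes were higher and 12.7% lower. The ECM myofibroblast-like cells stand in both comparisons, so the ratios of Eln, Mfap2, Mfap4, Fbln5, Ltbp4 and Fbln1 carry the same limit.

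Proliferating progenitor-like cells of day 7 were close to ECM myofibroblast-like cells. Fbln1 alone passed 2-fold, with 35 against 21 UMIs and a ratio of 4.57 (interval 2.59–8.27), so 1 of 9 genes was higher where 6.72% of all genes were higher, and 0 lower where 4.21% were. Eln came near the limit with a ratio of 1.94 (interval 1.56–2.42). The Eln and Fbln1 levels of both groups lie within what the day's mixed cells allow, so both are ratios of measured levels.

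**Figure D3:**
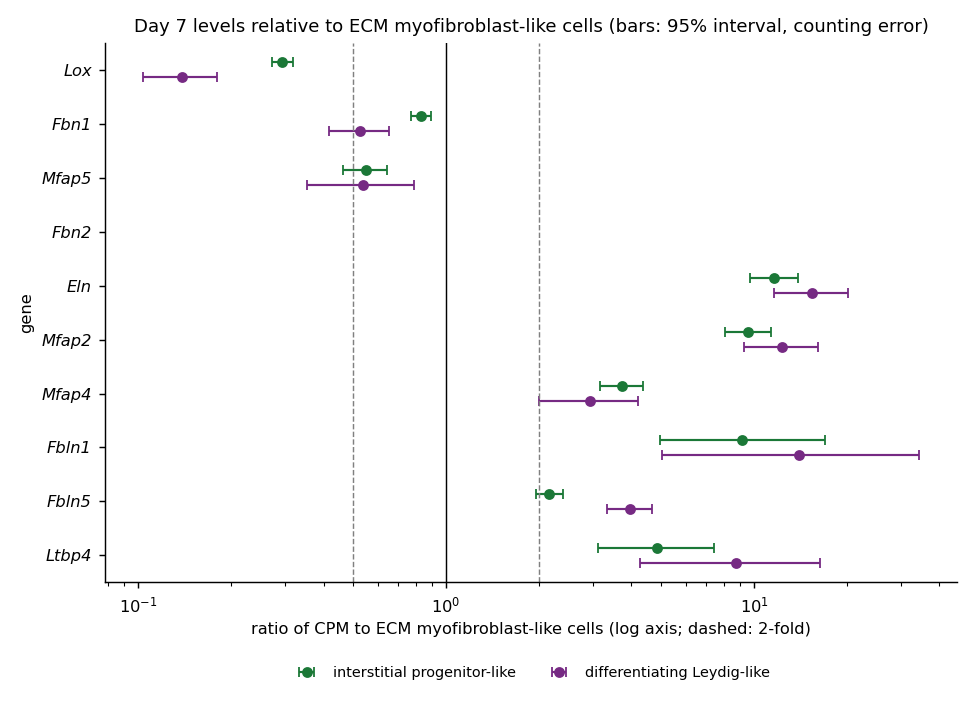
Ratios of CPM on a log axis for each gene in interstitial progenitor-like and differentiating Leydig-like cells against ECM myofibroblast-like cells of day 7, with 95% intervals of the counts and dashed lines at 2-fold. Eln and Mfap2 stand at 11.6 and 9.55 in interstitial progenitor-like cells, and Lox at 0.294.

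The same cells can be read as shares of the day's transcripts. Interstitial progenitor-like cells made up 11.2% of day 7 cells and held 8.58% of all UMIs, but 42.0% of the Eln UMIs and 38.4% of the Mfap2 UMIs. They held 25.0% of Mfap4, 26.8% of Fbln1 and 26.6% of Ltbp4, against 3.02% of Lox. ECM myofibroblast-like cells made up 59.5% of the cells and held 63.2% of all UMIs. They carried 75.6% of Lox, 71.2% of Mfap5 and 69.5% of Fbn1, but 26.6% of Eln.

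How many of the 243 interstitial progenitor-like cells stayed together depended on the clustering. Under 6 other settings, between 74.1% and 96.7% of them fell in 1 group, which held 332 to 387 CPM of Eln on day 7. That group was named differentiating Leydig-like under 3 of the settings, interstitial progenitor-like under 2, and stayed unnamed when the elastic fibre and related genes were kept in the clustering. The name of these cells therefore depends on the setting.

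Single cells of day 7 were then read for the genes seen beside Eln, with each cell thinned to 1500 UMIs. Of 151 cells with an Eln UMI, 27.8% also had an Mfap2 UMI (interval 20.8–35.7), against 8.17% of the 1591 cells without one. Mfap4 was seen in 25.2% against 6.91%, and Fbln5 in 43.7% against 28.7%. Lox was seen less often beside Eln, in 57.6% against 78.4%. The other days did not repeat the Lox gap. Beside Eln and without it, the Lox shares were 65.3% and 65.8% on day 4 and 10.3% and 7.82% on day 14. The Mfap2 shares were 8.00% and 7.56% on day 4 and 19.0% and 12.1% on day 14, with overlapping intervals on both days. Mfap4 kept a gap on day 4, with 18 of 150 cells (interval 7.27–18.3%) against 74 of 2077 cells (2.81–4.45%). Its day 14 intervals overlapped. Fbln5 kept a gap on day 14, with 46.6% against 26.3% and separate intervals, while its day 4 intervals overlapped. Within the interstitial progenitor-like cells of day 7 alone the Mfap2 shares were 39.7% and 37.2%, and those of Lox 41.3% and 46.9%, with wide overlap. Among ECM myofibroblast-like cells, Lox was seen in 93.2% of the 44 cells with Eln and 86.1% of the others, and Mfap2 in 4.55% and 4.89%. Mfap4 kept a gap in the interstitial progenitor-like cells, with 23 of 63 cells (36.5%, interval 24.7–49.6) against 17 of 113 cells (interval 9.01–23.0%).

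Day 4 held a like contrast in few cells. The differentiating Leydig-like group of that day rests on the clustering, for 1, 2 and 3 cells carried the name at resolution 1.2, with 30 components and with the list genes kept. The 52 differentiating Leydig-like cells had 237 CPM of Eln (interval 175–313), against 33.1 CPM (28.8–37.8) in differentiating myofibroblast-like cells, a ratio of 7.16 (5.14–9.80). Mfap4 stood at 140.1 against 25.9 CPM, and Mfap2 was 5.50-fold, Fbln5 2.47-fold and Ltbp4 2.42-fold higher. Fbln1 passed the ratio with 2.73-fold from 3 against 35 UMIs, but its interval of 0.537–8.66 spans equality. Lox was lower, with a ratio of 0.177 (interval 0.133–0.232), at 53 against 9514 UMIs. The Eln, Mfap2, Mfap4, Ltbp4 and Fbln1 levels of differentiating myofibroblast-like cells lie within what the day's mixed cells allow. The values of these genes are thus ratios of measured levels.

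By count, 6 of 10 genes were higher and 1 lower there, where 16.0% of all genes were higher and 13.2% lower. Proliferating progenitor-like cells of day 4 had 0 genes past 2-fold in either direction against the differentiating myofibroblast-like cells, where 6.64% of all genes were higher and 3.01% lower. Their ratios ran from 0.553 for Mfap4 to 1.52 for Fbln1. The unnamed day 4 cluster led by Ifitm1 had 67.8 CPM of Eln, 597 CPM of Lox and 9.79 CPM of Fbn2 from 26 UMIs (interval 6.40–14.3).

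By day 14 nearly all cells were differentiating Leydig-like or Leydig-like, and the elastic fibre genes were lower in the second. Eln stood at 202 CPM (interval 182–223) in differentiating Leydig-like and 62.2 CPM in Leydig-like cells, a ratio of 0.308 (0.259–0.366). Ltbp4 had the lowest ratio, 0.172 from 10 against 33 UMIs (0.076–0.358), and Fbn1 the highest of those called, 0.431. Mfap2, Mfap5, Fbln1, Fbln5 and Lox lay between them. Mfap4 was the exception, with 32.8 against 49.7 CPM and a ratio of 0.660 (interval 0.495–0.880).

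By measured level 8 of 9 genes were past 2-fold lower and 0 higher, where 6.89% of 10239 genes were lower and 4.99% higher. The median log2 ratio was -1.53 over the 9 genes and -0.05 over all genes tested. Against the 110.5 CPM limit of the day's mixed cells, Fbn1 stood above it in both groups, and Eln and Mfap2 in differentiating Leydig-like cells alone. Lox, Mfap4, Mfap5, Fbln1 and Ltbp4 stood below it in both, so their ratios are not read as changes of expression. Fbln5 held 1 UMI in the mixed cells, or 36.8 CPM (interval 0.932–205). Its interval in differentiating Leydig-like cells (492–558 CPM) lies above that one, while its interval in Leydig-like cells (200–232 CPM) overlaps it. The Fbln5 ratio is thus one of measured levels. Leydig-like cells were deeper, with a median of 5546 against 2184 UMIs per cell. At 1500 UMIs in every cell, 22.9% of differentiating Leydig-like and 7.77% of Leydig-like cells showed an Eln UMI. At that depth 4 of the genes and not 8 passed 2-fold. Fbln1 and Ltbp4, both among the 8, then held 11 and 12 UMIs over all cells of the day, under the minimum for a call. The fall from 8 to 4 is thus not all a matter of smaller ratios. The differentiating Leydig-like cells were 53.8% of day 14 cells and held 35.2% of all UMIs and 63.3% of the Eln UMIs.

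**Figure D4:**
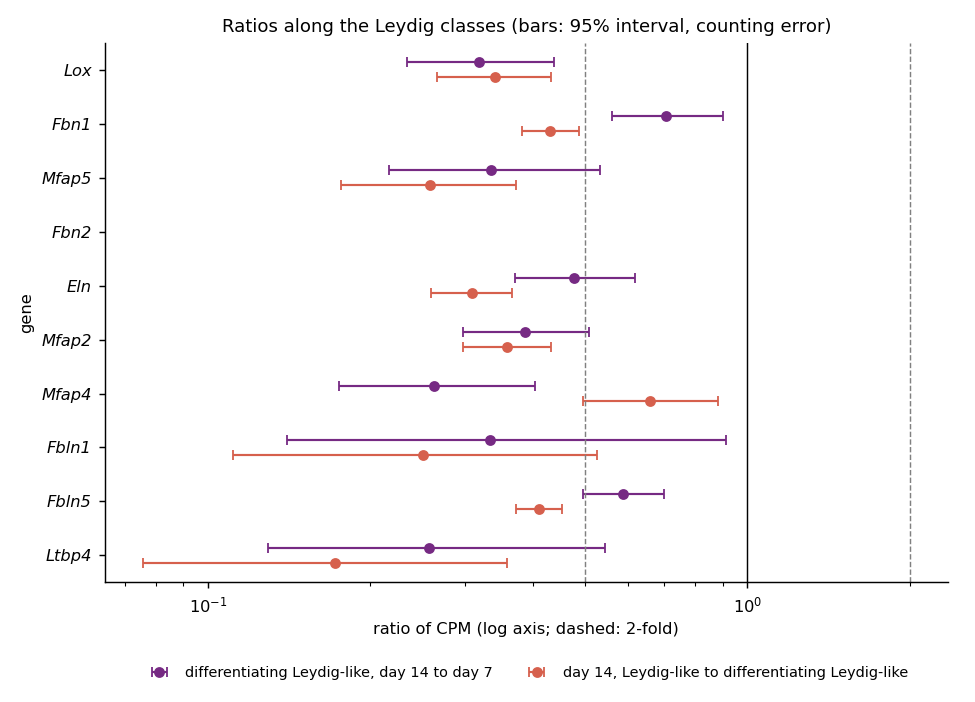
Ratios of CPM on a log axis for each gene in Leydig-like against differentiating Leydig-like cells of day 14 and in differentiating Leydig-like cells of day 14 against day 7, with 95% intervals of the counts and dashed lines at 2-fold. On day 14, Eln stands at 0.308 and Mfap4, at 0.660, is the gene closest to equality.

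Followed within 1 state, the measured levels of Eln, Mfap2 and Fbln5 moved otherwise than over whole days. Those of Lox, Mfap4 and Mfap5 were lower on day 14 than on day 7 in both views. In differentiating Leydig-like cells, Eln stood at 237, 424 and 202 CPM on days 4, 7 and 14, so its day 14 level was 0.476 of that of day 7 (interval 0.370–0.620). Over all cells of the libraries its ratio between the same days was 1.72. The 52 and 54 cells of days 4 and 7 depend on the clustering, and the day 7 group held 28, 17 and 30 cells at resolution 1.2, with 30 components and with the list genes kept. From day 7 to day 14, the measured levels of 7 of 9 genes fell past 2-fold in these cells and 0 rose, where 7.32% of 8100 genes were lower and 10.2% higher. On day 14, Lox, Mfap4, Mfap5, Fbln1 and Ltbp4 stood under the 110.5 CPM limit of the mixed cells. Their ratios are not read as changes of expression, while Eln and Mfap2 stood above that limit. Fbn1 and Fbln5, at ratios of 0.706 and 0.587, stayed within 2-fold. Over all cells the Fbln5 ratio between these days was 1.24 (interval 1.16–1.31).

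From day 4 to day 7 in the same state, 1 of 8 genes was lower, Mfap5 at a ratio of 0.390 (interval 0.243–0.610), and 0 were higher. Over all genes 6.24% were lower and 6.00% higher. Eln and Mfap2 had ratios of 1.79 (interval 1.23–2.62) and 1.77. In proliferating progenitor-like cells, Mfap4 was 4.81-fold higher on day 7 than on day 4 (interval 3.41–6.92), with 185 against 41 UMIs, and Ltbp4 lower at a ratio of 0.494 (0.294–0.807). There 1 of 9 genes was higher and 1 lower, where 4.14% and 3.22% of all genes were. The Mfap4 and Ltbp4 levels of both days lie within what the mixed cells of their day allow, so both are ratios of measured levels.

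Pairs of related genes shifted in balance. Lox made up 96.2% of the UMIs of Lox and Eln together on day 4 and 96.6% on day 7, but 35.4% on day 14 (exact Clopper-Pearson 95% interval 32.3–38.6%). Within day 7 the share was 98.8% in ECM myofibroblast-like cells, 67.3% (64.2–70.2%) in interstitial progenitor-like cells and 42.2% (33.5–51.2%) in differentiating Leydig-like cells. On day 14 the shares of differentiating Leydig-like and Leydig-like cells overlapped, with 32.7% (28.9–36.8%) and 34.9% (29.7–40.5%). Lox in both groups and Eln in Leydig-like cells lie under the 110.5 CPM limit of that day's mixed cells. The day 14 shares are therefore shares of measured levels. These shares compare a balance between groups and say nothing of which gene of a pair is more abundant.

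Of the microfibril-associated glycoproteins, Mfap5 made up 84.8% (interval 83.7–85.8%) of the UMIs of Mfap5 and Mfap2 on day 4, 78.6% (77.2–79.9%) on day 7 and 22.9% (19.7–26.4%) on day 14. On day 7 it made up 89.8% in ECM myofibroblast-like and 33.6% in interstitial progenitor-like cells. The day 14 levels of both genes lie under the 110.5 CPM limit of that day, so its share is one of measured levels. Fbn2 made up 0.80% of the UMIs of both fibrillins on day 4, 0.19% on day 7 and 0.09% on day 14, the last from 1 UMI.

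**Figure D5:**
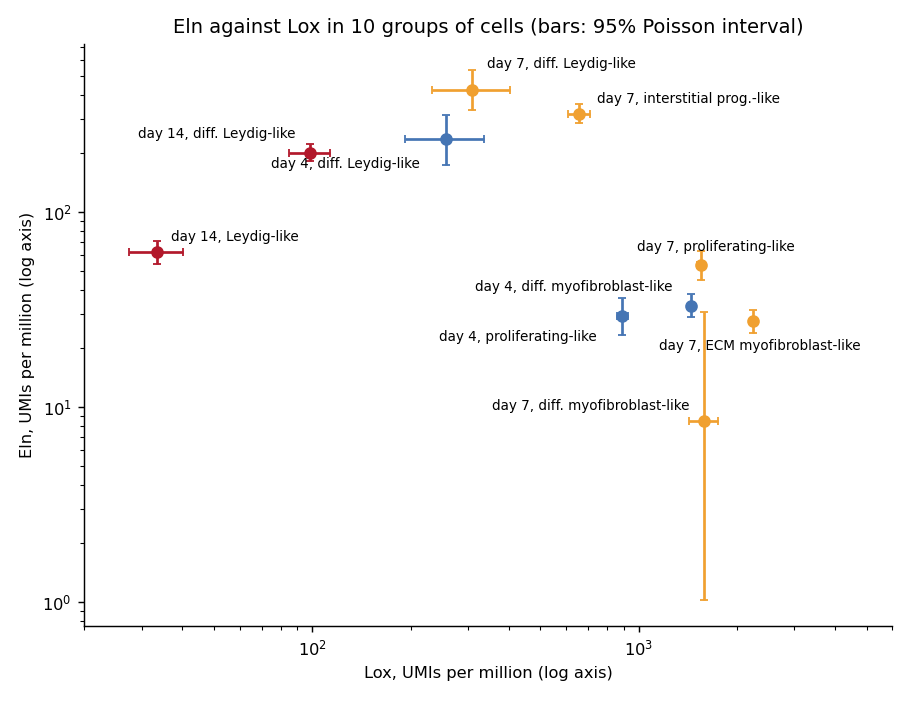
Level of Eln against level of Lox in CPM, both on log axes, with 1 point for each of the 10 groups of day and cell state and exact Poisson 95% intervals as bars. ECM myofibroblast-like cells of day 7 sit at 27.5 CPM of Eln and 2236 CPM of Lox, and interstitial progenitor-like cells at 319.7 and 657 CPM.

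Genes whose levels over the 10 groups ran most like Eln and Lox were looked up among 4535 genes with enough UMIs. For Eln these were Gpx7, with a Pearson correlation of 0.957 of log2 levels, Entpd2 with 0.948, Bmper with 0.938, Sulf2 with 0.936 and Olfml3 with 0.932. For Lox they were Prss23 and Acot7 with 0.991, Anxa2 with 0.990, Lgals1 with 0.978 and Capg with 0.975. Entpd2 and Prss23 are markers used to name the groups. Among the elastic fibre genes, Mfap2 was closest to Eln with 0.93 and Fbn1 closest to Lox with 0.94, while Eln and Lox had -0.52. The 10 groups come from 3 libraries of 1 culture design, so these values are descriptions.

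The other genes of elastic fibre assembly were taken from fixed lists. Of 16 other microfibril and fibulin genes tested, 1 was past 2-fold higher and 6 lower on day 14 against day 4, where 16.3% and 17.6% of all genes were. The lower ones included Fbln2, at 986, 1194 and 109 CPM over the 3 days, and Ltbp2, at 106, 321 and 6.95 CPM. Adamtsl2, a secreted protein that binds fibrillin, was the higher one, at 0.552, 3.10 and 13.0 CPM. All 4 other lysyl oxidases were lower on day 14, with ratios from 0.17 for Loxl4 to 0.41 for Loxl1.

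Within day 7 the other lysyl oxidases did not follow Lox as a group. In interstitial progenitor-like against ECM myofibroblast-like cells, 1 of the 4, Loxl3, was lower, at a ratio of 0.46. Of 15 other microfibril and fibulin genes, 2 were higher there, Efemp1 (3.19-fold) and Adamtsl2 (14.7-fold), and 6 lower. The genes that supply copper to Lox or process it were mixed over the days. Of 6 tested on day 14 against day 4, Fn1, the fibronectin gene, and Tll1, a tolloid protease, were lower at ratios of 0.32 and 0.14. Bmp1, the main protease of Lox maturation, had a ratio of 1.07.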

How the data were processed

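The authors aligned Drop-seq reads to GRCm38 with STAR and counted unique molecular identifiers (UMIs) per gene and cell, and the deposited values are these raw counts without normalization. Days 4, 7 and 14 were read from the merged table, whose entries differed in 0 cases from the tables per day. Its 495 columns of day 0 cells were not used. The merged table holds the cells that passed the study's filter (500 or more genes, no more than 10% mitochondrial UMIs).

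Counts were summed per day, or per day and cell state, and given as CPM. Ratios carry exact conditional binomial 95% intervals and shares exact Clopper-Pearson intervals, which cover counting error only. With 1 library a day, cells are not replicates and no test was run. A gene counted as higher or lower past a 2-fold ratio with at least 20 UMIs in both groups together, and a count of 0 entered as a limit of 3 UMIs. Seurat 5.3.0 in R 4.3.3 clustered the cells on 2000 variable genes, 20 components, 20 neighbours and resolution 0.8, with 68 genes of the lists left out. Scrublet in Scanpy 1.11.5 called 0.049% of cells as doublets, too few to be used, so an alternative removed the highest 6% of scores (179, 130 and 58 cells by day). Likeness of genes is Pearson's r of log2(CPM + 10) over the groups. Other steps ran under Python 3.11.15 (pandas 2.3.3 and scipy 1.17.1 on numpy 2.4.6), with plots by matplotlib 3.10.9. The scripts were tested on simulated data.

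All 10 members were described, together with genes of the other lists past 2-fold and the 5 genes most like Eln and Lox. The members and lists were chosen with earlier results of these data known.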

Additional observations from a re-analysis of the deposited data

Results flagged for a closer look

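Barcodes outside the study's filter also held UMIs of the elastic fibre genes, in data that no comparison above used. On day 4, 320 such barcodes held 397 UMIs of the 10 genes, or 2469 per 1000000 UMIs, against 2465 in the cells that were kept. On day 7, 229 barcodes held 476 UMIs, or 3976 against 3438 per 1000000. On day 14, 327 barcodes held 92 UMIs, or 743 against 881 per 1000000. There were no control samples, so each value was set against the limit that a count of 0 allows.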

How the results depend on the processing

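No paired analysis was possible because each day is 1 library. Of 1532 ratios of single genes under the alternatives, 1388 stayed within counting error of the reported value and 144 moved. The other fold thresholds and UMI minimums cannot change a ratio, so the ratios of those settings are among the unmoved by construction. Of the ratios past 2-fold, 0 turned direction, and a turn was not counted for ratios within 2-fold. Of 167 counts past 2-fold, 137 stayed within 1.5 times the reported count and 30 moved. The cause of a move was not tested unless the setting itself changes the threshold, the number of cells or the depth. With a 3-fold threshold the counts fell from 3 to 1 for day 7 against day 4, from 7 to 4 for day 4 differentiating Leydig-like cells, from 8 to 4 for day 14 Leydig-like cells, from 2 to 1 for proliferating cells across days, and from 1 to 0 and from 7 to 4 for differentiating Leydig-like cells across days. With a 1.5-fold threshold they rose from 0 to 4 and from 1 to 3 for the proliferating cells of days 4 and 7, from 2 to 5 for proliferating cells across days, and from 1 to 3 for differentiating Leydig-like cells between days 4 and 7. The count of 0 for proliferating cells of day 4 became 1 without the highest doublet scores, with equal weight per cell and with 30 components, and 2 at resolution 0.4 and with the list genes kept. The count of 1 for proliferating cells of day 7 became 2 under a stricter cell filter and 0 with 1500 UMIs per cell or a minimum of 100 UMIs. Fbln1, the 1 gene counted there, held 22 UMIs in all thinned cells of day 7. Its loss with 1500 UMIs per cell therefore need not be a smaller ratio. The count of 2 for proliferating cells across days became 1 without the highest doublet scores, at resolution 0.4, with list genes kept, with 1500 UMIs per cell, with a minimum of 100 UMIs and with 10 components. The count of 1 for differentiating Leydig-like cells between days 4 and 7 became 0 with equal weight per cell, 2 at resolution 0.4 or with no minimum, and 3 with 10 components or with each cell named by itself. With 1500 UMIs per cell, the 8 lower genes of day 14 Leydig-like cells became 4, and Fbln1 and Ltbp4 among the 8 fell under the UMI minimum. In the same setting Lox made up 95.6% and 95.4% of Lox and Eln on days 4 and 7, Mfap5 74.9% and 19.0% of Mfap5 and Mfap2 on days 7 and 14, and Fbn2 0% of the fibrillins on day 14. With 1000 UMIs per cell, Eln was seen in 4.79%, 6.31% and 11.8% of cells by day and Lox in 54.0%, 64.4% and 5.57%. Leaving out the mixed cluster, an alternative chosen after seeing the data, moved 0 counts. Comparisons with differentiating Leydig-like or interstitial progenitor-like cells were not run where a setting left under 50 cells, among them resolution 1.2, 30 components and list genes kept.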

Other observations

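Genes listed as elastin-degrading proteases or as parts of the elastin receptor complex were higher late in the culture. Lysosomal enzymes are among them, and turnover of elastic fibres was not measured. Of 5 elastin-degrading proteases tested, 5 were past 2-fold higher on day 14 than on day 4 and 0 lower, where 16.3% of all genes were higher. Mmp2, a gelatinase, stood at 51.6, 166 and 584 CPM on days 4, 7 and 14, and Ctsl, a lysosomal cathepsin, at 903, 1157 and 2767 CPM. Ctss, a cathepsin strongly expressed by macrophages, was 44.6-fold higher, but its 225 UMIs of day 14 lay in 5 of 973 cells, and the summed macrophage markers also stood highest on day 14, as given above. Its part in that value was not tested. All 3 genes of the elastin receptor complex were higher, Neu1, a lysosomal sialidase, at 20.3, 52.3 and 208 CPM, Ctsa at 76.6, 199 and 386 CPM and Glb1 at 33.5, 46.3 and 116 CPM.

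Some other matrix genes were also higher in the Eln-rich cells of day 7. Of 6 small leucine-rich proteoglycans, 4 were higher in interstitial progenitor-like than in ECM myofibroblast-like cells, Dcn at 3.30-fold, Lum at 5.71-fold, Fmod at 5.82-fold and Prelp at 2.62-fold, and 1 was lower, where 6.43% of all genes were higher. Of 5 fibrillar collagens, Col3a1 alone was higher, at 2.34-fold, and 0 were lower. On day 14, 5 of these 6 proteoglycans and 3 of 5 fibrillar collagens were lower in Leydig-like than in differentiating Leydig-like cells, and 0 of either were higher, where 6.89% of all genes were lower. Mmp2 was lower too, at a ratio of 0.31. Of 7 RGD-binding integrins, 4 were lower on day 14 than on day 4 and Itgb5 was higher at 2.27-fold, where 17.6% of all genes were lower and 16.3% higher.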
